A study of Homo sapiens with 4 samples.

Results

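The hepatocyte lineage transcription factors described here were HNF4A, HNF4G, FOXA1, FOXA2, FOXA3, ONECUT1, ONECUT2 and CEBPA. They were taken by gene symbol from the deposited tables of FPKM (fragments scaled to transcript length in kilobases and to 1000000 mapped fragments of the library), and all 8 were found among the 60612 genes listed. The polyadenylated RNA of 2 human hepatocellular carcinoma lines was sequenced in 4 libraries, 1 per group. Huh-7 cells stably carried either a lentiviral construct that overexpresses CCDC137, a nuclear RNA-binding protein, or the empty vector. PLC/PRF/5 cells stably carried a catalytically inactive Cas9 fused to the KRAB repressor with a guide against CCDC137 (knockdown) or a control vector, whose exact content is not given in the sources used here. Infected cells were selected with puromycin, and Huh-7 cells were grown in another medium than PLC/PRF/5 cells. Line, vector system and medium therefore cannot be told apart in any comparison of the lines. With 1 library per group there was no replicate error and no test, and each value and ratio is a description of these 4 libraries.

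Hepatocytes are kept in their state by a small network of transcription factors that bind each other's regulatory regions as well as the genes of plasma proteins, lipoproteins and metabolic enzymes. HNF4A is an orphan nuclear receptor and the central activator of this network. FOXA proteins are forkhead factors, of which FOXA1 and FOXA2 open chromatin in the foregut endoderm before the liver forms. ONECUT factors, which carry a cut domain and a homeodomain, act in hepatoblasts and in the choice between hepatocyte and bile duct fates. CEBPA is a leucine zipper factor that drives metabolic genes and restrains cell division in mature hepatocytes.

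Promoter sequences are shown for the 4 factors that differed more than 2-fold between the control libraries on the scale of FPKM + 1 (FOXA3, ONECUT1, ONECUT2 and CEBPA), and for HNF4A as the factor at the centre of the network. The sequences came from RefSeq on GRCh38.p14, in which 6 of the 8 factors had an entry and FOXA2 and HNF4G had none. Each is the 250 bases before the annotated start, 5′ to 3′ on the strand of the gene. They lie at chr20:44400989-44401238 on the plus strand for the downstream of the 2 HNF4A starts, at chr19:45864076-45864325 on the plus strand for FOXA3 and at chr15:52790337-52790586 on the minus strand for ONECUT1. ONECUT2 lies at chr18:57435124-57435373 on the plus strand and CEBPA at chr19:33302535-33302784 on the minus strand. Capitals mark matches to an ONECUT core, a forkhead core or a TATA box.
HNF4A, downstream start: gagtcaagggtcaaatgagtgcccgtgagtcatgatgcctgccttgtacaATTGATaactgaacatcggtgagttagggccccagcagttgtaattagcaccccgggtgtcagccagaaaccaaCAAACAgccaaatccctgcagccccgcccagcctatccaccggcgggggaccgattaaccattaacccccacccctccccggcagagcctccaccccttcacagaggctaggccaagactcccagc
FOXA3: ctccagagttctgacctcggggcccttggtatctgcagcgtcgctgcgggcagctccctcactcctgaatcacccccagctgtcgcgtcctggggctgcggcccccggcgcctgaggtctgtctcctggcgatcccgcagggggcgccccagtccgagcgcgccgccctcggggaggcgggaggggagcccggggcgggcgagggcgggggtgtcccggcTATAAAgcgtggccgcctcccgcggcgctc
ONECUT1: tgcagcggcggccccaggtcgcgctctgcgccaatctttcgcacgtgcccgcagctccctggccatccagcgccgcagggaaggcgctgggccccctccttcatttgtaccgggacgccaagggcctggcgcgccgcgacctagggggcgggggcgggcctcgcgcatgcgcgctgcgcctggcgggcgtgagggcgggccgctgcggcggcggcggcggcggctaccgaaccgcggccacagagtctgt
ONECUT2: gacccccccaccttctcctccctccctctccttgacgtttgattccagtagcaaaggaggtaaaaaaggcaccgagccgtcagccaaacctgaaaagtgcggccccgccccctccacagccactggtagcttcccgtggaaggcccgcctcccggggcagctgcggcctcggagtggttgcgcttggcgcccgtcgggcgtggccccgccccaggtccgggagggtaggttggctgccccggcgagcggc
CEBPA: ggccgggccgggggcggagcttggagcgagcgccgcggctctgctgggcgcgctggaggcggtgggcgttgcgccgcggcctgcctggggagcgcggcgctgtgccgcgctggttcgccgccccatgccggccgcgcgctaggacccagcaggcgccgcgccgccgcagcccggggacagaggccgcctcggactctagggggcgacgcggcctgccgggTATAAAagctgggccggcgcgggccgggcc

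Letters of 5 motifs were searched on both strands of these windows, and no match overlapped another. The ONECUT core ATCAAT was held by 5.58% of 35116 RefSeq promoter windows of the same length. The forkhead core, TGTTTA or TGTTTG, was held by 21.6%, the HNF4 element CAAAGNNCA by 4.44%, the CEBP element TTGCNNAA by 9.05% and the TATA box TATAAA by 10.7%. The HNF4A window at the downstream start, which lies on the side of the promoter known from adult liver, held an ONECUT core 200 bases and a forkhead core 126 bases before the start. The window of the upstream HNF4A start held an ONECUT core 33 bases before it. FOXA3 and CEBPA each had a TATA box 30 bases before the start, and the FOXA1 window had a forkhead core 234 bases before it. The ONECUT1 and ONECUT2 windows held none of these letters. The base composition ran from 58% G and C at the downstream HNF4A start to 81.2% at CEBPA, with 68.8% at ONECUT2, 75.2% at FOXA3 and 76.8% at ONECUT1.

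CCDC137 itself was at 229.0 FPKM in the overexpressing Huh-7 library, against 11.9 FPKM with the empty vector, and at 0.771 FPKM in the PLC/PRF/5 knockdown, against 20.5 FPKM in its control. Between 11727 and 11903 genes reached 1 FPKM in a library, the level taken here as expressed. Of 20 hepatocyte markers, 17 reached 1 FPKM in both Huh-7 libraries and 15 in both PLC/PRF/5 libraries. The list summed to 3958 and 3937 FPKM in Huh-7 and to 3234 and 3277 FPKM in PLC/PRF/5. ALB, serum albumin, gave 1142 and 1084 FPKM of the Huh-7 sums and 1.94 and 2.15 FPKM of the PLC/PRF/5 sums. Of the 17 expressed markers, 9 were higher and 8 lower in Huh-7, both between the vector cells and between the libraries with altered CCDC137. CYP3A4 was at 0.0333 FPKM or less in all 4 libraries, so that a defining enzyme of mature liver was near 0. Of 11 blood and endothelial markers, 4 reached 1 FPKM in both Huh-7 libraries and 3 in both PLC/PRF/5 libraries, and the list summed to between 169.7 and 253.9 FPKM, mostly from LYZ (lysozyme), at 128.7 to 206.3 FPKM. CD68, a lysosomal protein, was at 4.60 to 43.8 FPKM. The leukocyte marker PTPRC, the red cell gene HBB and the endothelial receptor KDR were at 0 in all 4 libraries. Others of the list reached 1 FPKM in 1 line each. CD14 was at 4.81 and 4.59 FPKM and PECAM1 at 2.66 and 2.28 FPKM in overexpressing and empty vector Huh-7 cells. The globin gene HBA1 was at 2.77 and 1.94 FPKM in PLC/PRF/5 knockdown and control cells. Of 16 gut and pancreas markers, 5 were at 0 in all libraries (CDX1, NKX2-2, PTF1A, NEUROG3 and INS), and the list summed to between 43.6 and 63.2 FPKM. VIL1, a microvillus protein, was at 21.8 to 33.8 FPKM, and the gut keratin KRT20 was at 0 and 0.0506 FPKM in overexpressing and empty vector Huh-7 cells and at 27.0 and 29.7 FPKM in PLC/PRF/5 knockdown and control cells. The 12 bile duct markers summed to between 208 and 230 FPKM in each library, of which CD24 gave 137.2 to 171.0 FPKM, and the others differed between the lines in both directions. SOX9, a bile duct transcription factor, was at 29.2 and 25.9 FPKM in overexpressing and empty vector Huh-7 cells and at 8.998 and 8.27 FPKM in PLC/PRF/5 knockdown and control cells. The bile duct keratin KRT19 was at 0.157 and 0.409 FPKM in overexpressing and empty vector Huh-7 cells and at 14.4 and 13.0 FPKM in PLC/PRF/5 knockdown and control cells. In bulk RNA, fewer cells that express a gene and less RNA per cell cannot be told apart.

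Huh-7 cells were led by CEBPA, and PLC/PRF/5 cells by FOXA3. In Huh-7 cells CEBPA stood above the next factor, FOXA2, by 3.31-fold with CCDC137 overexpression and by 2.58-fold with the empty vector. HNF4G was the lowest of the 8 in both Huh-7 libraries. In PLC/PRF/5 cells the order was the same in knockdown and control, with FOXA3, FOXA2, ONECUT1, HNF4A, FOXA1, CEBPA, HNF4G and ONECUT2 from high to low. The upper 4 of these were close to one another, each above the next by 1.07- to 1.15-fold in the knockdown down to HNF4A and by 1.21- to 1.36-fold in the control. CEBPA, FOXA2 and HNF4A led both Huh-7 libraries in this order, but FOXA3 was above FOXA1 and ONECUT2 with CCDC137 overexpression and below both with the empty vector. Summed over the 8 factors, the level was 133.4 FPKM with overexpression and 112.2 FPKM with the empty vector in Huh-7, and 72.1 FPKM in the knockdown and 71.1 FPKM in the control of PLC/PRF/5.

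**Figure D1:**
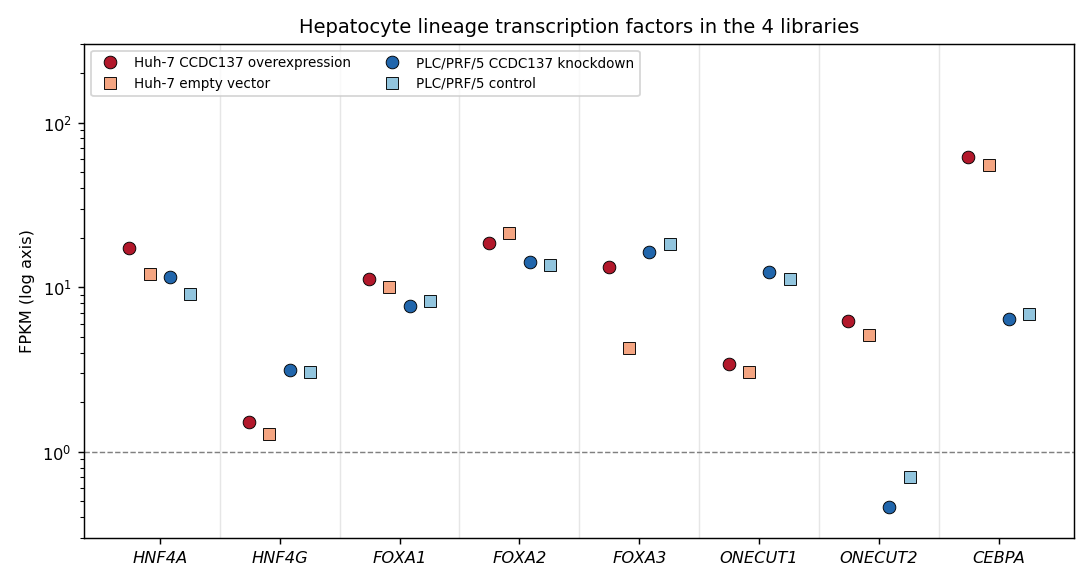
FPKM on a log axis of each factor in the 4 libraries, with 1 point per library (circles, CCDC137 overexpression or knockdown; squares, the matching vector cells; dashed line, 1 FPKM). CEBPA and ONECUT2 sit far higher in Huh-7, ONECUT1 higher in PLC/PRF/5, and the Huh-7 empty vector point of FOXA3 (4.27 FPKM) lies below the other 3 libraries.

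The HNF4 pair was dominated by HNF4A in every library. HNF4A was at 17.3 FPKM with CCDC137 overexpression and 12.1 FPKM with the empty vector in Huh-7, and at 11.6 FPKM in the knockdown and 9.05 FPKM in the control of PLC/PRF/5. The overexpressing Huh-7 library was thus the highest and the PLC/PRF/5 control the lowest, while the empty vector and knockdown libraries lay side by side. HNF4A was above 81.2%, 72.1%, 71.5% and 64.2% of expressed genes in these 4 libraries. It was the only factor whose difference was the largest or next to largest in both lines. In both the library with altered CCDC137 was the higher, as it also was for ONECUT1 and HNF4G. The HNF4A gene (GRCh37, chr20:42984339-43061485, plus strand) is read from an upstream and a downstream promoter, which gene-level values do not separate. The antisense transcript HNF4A-AS1, which overlaps it, stayed at or under 0.298 FPKM.

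HNF4G, the paralog known mainly from gut, kidney and pancreas, was low throughout. Its level was 1.51 FPKM with overexpression and 1.29 FPKM with the empty vector in Huh-7, and 3.12 FPKM in the knockdown and 3.08 FPKM in the control of PLC/PRF/5. It was thus about as high in either library of a line and higher in PLC/PRF/5. HNF4A exceeded HNF4G by 11.4- and 9.36-fold in overexpressing and empty vector Huh-7 cells and by 3.70- and 2.94-fold in knockdown and control PLC/PRF/5 cells. HNF4G made up 8.04% and 9.65% of the pair's summed FPKM in these Huh-7 libraries and 21.3% and 25.4% in these PLC/PRF/5 libraries.

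Among the FOXA factors, FOXA1 and FOXA2 varied little and FOXA3 varied most. FOXA1 (GRCh37, chr14:38058757-38065264, minus strand) was at 11.3 FPKM with CCDC137 overexpression and 9.97 FPKM with the empty vector, and at 7.68 FPKM in the knockdown and 8.22 FPKM in the control. FOXA2 (GRCh37, chr20:22561636-22566093, minus strand) was at 18.7 FPKM with overexpression and 21.4 FPKM with the empty vector, and at 14.2 FPKM in the knockdown and 13.6 FPKM in the control. Both pioneer factors were therefore somewhat higher in Huh-7 than in PLC/PRF/5.

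FOXA3, the forkhead factor most associated with the mature liver, was at 13.3 FPKM with CCDC137 overexpression, against 4.27 FPKM with the empty vector, in Huh-7. In PLC/PRF/5 it was at 16.3 FPKM in the knockdown and 18.4 FPKM in the control. The empty vector library stood apart below the other 3. FOXA3 (GRCh37, chr19:46367247-46377055, plus strand) has 2 listed transcripts of 538 and 1923 bases, a 3.57-fold difference in length, so that the same fragments give other FPKM depending on which transcript they are assigned to. The part of this assignment in the FOXA3 values was not tested. Its neighbours SYMPK, at 6.90 FPKM with overexpression and 7.22 FPKM with the empty vector, and IRF2BP1, at 4.64 and 4.99 FPKM, did not share the FOXA3 difference in Huh-7. Like FOXA3, both were higher in PLC/PRF/5, with SYMPK at 13.4 and 13.3 FPKM and IRF2BP1 at 16.8 and 17.0 FPKM in knockdown and control.

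The make-up of the FOXA family differed between the 4 libraries more than its sum. The 3 genes summed to 43.3 FPKM with overexpression and 35.6 FPKM with the empty vector, and to 38.1 FPKM in the knockdown and 40.2 FPKM in the control. FOXA3 held 30.8% of this sum with overexpression, 11.998% with the empty vector, 42.6% in the knockdown and 45.8% in the control. FOXA2 held 43.1% and 60.0% in overexpressing and empty vector Huh-7 cells, and 37.2% and 33.7% in knockdown and control PLC/PRF/5 cells. FOXA1 kept between 20.1% and 28.0%.

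The ONECUT pair was split by line. ONECUT1, also named HNF6 (GRCh37, chr15:53047250-53083275, minus strand), was at 3.41 FPKM with CCDC137 overexpression and 3.07 FPKM with the empty vector, and at 12.4 FPKM in the knockdown and 11.2 FPKM in the control. ONECUT2 (GRCh37, chr18:55102606-55158530, plus strand) was at 6.27 FPKM with overexpression and 5.12 FPKM with the empty vector, and at 0.460 FPKM in the knockdown and 0.706 FPKM in the control. ONECUT2 was the only one of the 8 factors below 1 FPKM in any library, and this held in both PLC/PRF/5 libraries. In Huh-7, ONECUT2 was 1.84-fold above ONECUT1 with overexpression and 1.67-fold with the empty vector, whereas in PLC/PRF/5 ONECUT1 was 26.9-fold above ONECUT2 in the knockdown and 15.9-fold above it in the control. The summed FPKM of the pair spanned less, at 9.68 with overexpression, 8.20 with the empty vector, 12.8 in the knockdown and 11.9 in the control. The listed ONECUT2 transcripts are 437 and 16433 bases long, and the effect of this spread of lengths on its FPKM was not tested.

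CEBPA, at GRCh37 chr19:33790840-33793440 on the minus strand, was the most abundant factor in Huh-7 and the third from the bottom in PLC/PRF/5. It was at 61.7 FPKM with CCDC137 overexpression and 55.1 FPKM with the empty vector, against 6.40 FPKM in the knockdown and 6.85 FPKM in the control. This placed it above 95.7% and 94.7% of expressed genes in those Huh-7 libraries and above 53.2% and 55.1% in those PLC/PRF/5 libraries. The deposited tables list 1 transcript for CEBPA, of 2601 bases in GENCODE. The divergent transcript CEBPA-DT, which lies 323 bases away on the opposite strand, was also higher in Huh-7, at 2.78 FPKM with overexpression and 1.84 FPKM with the empty vector, against 0.577 FPKM in the knockdown and 0.656 FPKM in the control.

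**Figure D2:**
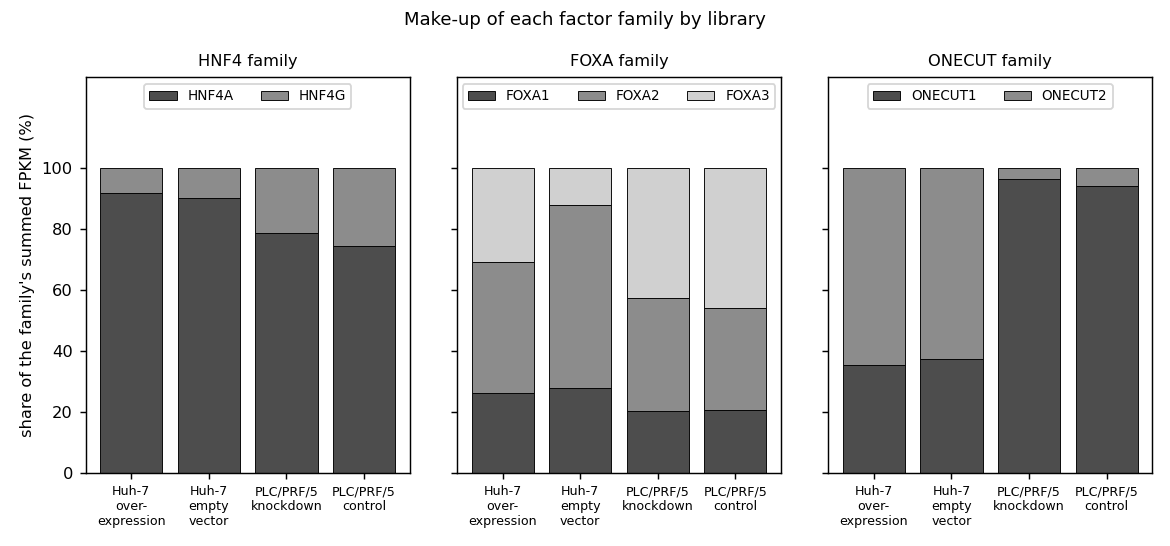
Share in percent of each family's summed FPKM held by its genes, in stacked bars for each of the 4 libraries. ONECUT1 holds 35.2% and 37.5% of the ONECUT sum in the Huh-7 libraries and 96.4% and 94.1% in the PLC/PRF/5 libraries, and FOXA3 holds 11.998% of the FOXA sum in Huh-7 with the empty vector.

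The first comparison asked whether the factors differed between Huh-7 cells with and without CCDC137 overexpression. FOXA3 was 3.12-fold higher with overexpression, and the other 7 factors were within 1.5-fold. On the log2(FPKM + 1) scale used for all differences, FOXA3 was 1.44 higher, a difference that 0.947% of the 12255 genes at 1 FPKM or more in either library equalled or exceeded in size. HNF4A followed at 0.48 (1.43-fold in FPKM), which 8.74% of those genes equalled or exceeded. ONECUT2 was 0.25 higher, FOXA1 and CEBPA 0.16 higher each, HNF4G 0.13 higher and ONECUT1 0.11 higher, whereas FOXA2 was 0.19 lower. Thus 7 of 8 factors were higher and 1 lower, against 53.6% of expressed genes that were higher. Past 1.5-fold in either direction lay 1 of 8 factors and 6.21% of expressed genes. The median difference was 0.16 over the 8 factors and 0.01 over expressed genes.

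The second comparison asked the same for PLC/PRF/5 cells with and without CCDC137 knockdown. None of the 8 factors differed by 1.5-fold, against 6.03% of the 12300 genes at 1 FPKM or more in either library. HNF4A had the largest difference, 0.32 higher in the knockdown (1.28-fold in FPKM), which 14.8% of those genes equalled or exceeded. ONECUT1 was 0.13 higher, FOXA2 0.06 higher and HNF4G 0.02 higher. ONECUT2 was at -0.22, FOXA3 at -0.17, and FOXA1 and CEBPA at -0.09 each. The sign of HNF4G was lost (-0.0018) when FPKM were scaled to sum to 1000000 per library. The median difference was -0.03 over the 8 factors and -0.01 over expressed genes. In FPKM without a pseudocount, ONECUT2 was 1.53-fold lower in the knockdown, between 2 values under 1 FPKM. FOXA3, which was 1.44 higher on overexpression, was 0.17 lower on knockdown. Because these values come from different lines with 1 library per group, the difference between the comparisons was not tested.

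**Figure D3:**
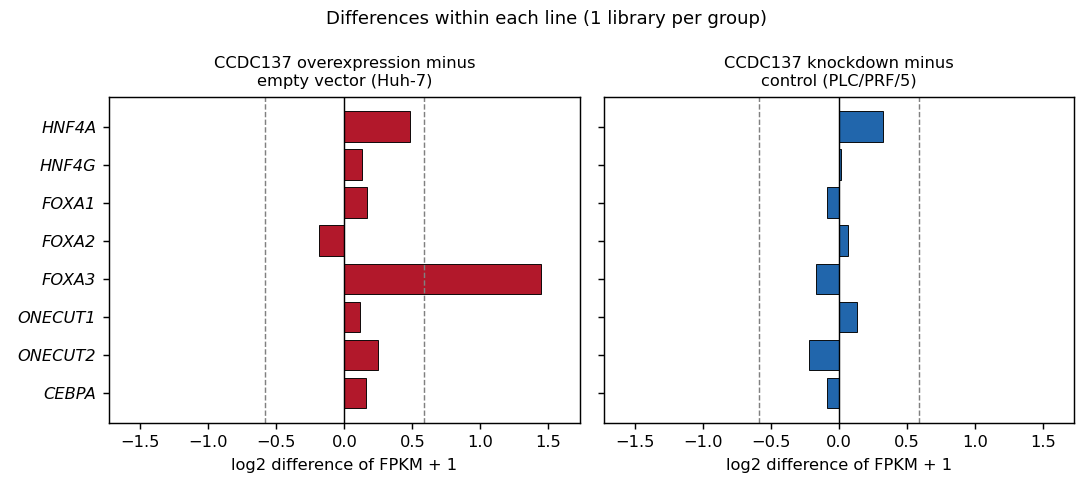
Difference in log2(FPKM + 1) of each factor, CCDC137 overexpression minus empty vector in Huh-7 (left) and CCDC137 knockdown minus control in PLC/PRF/5 (right), 1 library per group, with dashed lines at 1.5-fold. The bar of FOXA3 on overexpression (1.44) is the only one past a line, and HNF4A lies to the right in both panels (0.48 and 0.32).

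The third comparison set the lines against each other, with the same libraries as above. Between the vector cells, Huh-7 was higher in CEBPA by 8.04-fold and in ONECUT2 by 7.25-fold, and lower in FOXA3 by 4.30-fold and in ONECUT1 by 3.66-fold. On the log2(FPKM + 1) scale these differences were 2.84 for CEBPA, 1.84 for ONECUT2, -1.88 for FOXA3 and -1.59 for ONECUT1. The other 4 factors were nearer, with FOXA2 at 0.62, HNF4A at 0.38, FOXA1 at 0.25 and HNF4G at -0.83. Past 2-fold on this scale lay 4 of 8 factors, 2 in each direction, and 28.2% of 13304 expressed genes. HNF4G, at a 2.39-fold lower FPKM in Huh-7, stayed under that limit because 1 FPKM was added to low values. The median size of the difference was 1.21 over the 8 factors and 0.59 over expressed genes.

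Between overexpressing Huh-7 and knockdown PLC/PRF/5 cells, 3 of 8 factors and 28.3% of 13444 expressed genes were past 2-fold. CEBPA was 9.64-fold higher, ONECUT2 13.6-fold higher and ONECUT1 3.63-fold lower in Huh-7. The median size of the difference was here 0.63 over the 8 factors and 0.58 over expressed genes, so that the larger median of the factors between the vector cells did not hold in this pair. FOXA3 was only 1.22-fold lower. Its 4.30-fold difference between the vector cells was therefore not seen in this pair. Which of the Huh-7 libraries accounts for this was not tested. The same 3 factors, CEBPA, ONECUT2 and ONECUT1, were past 2-fold in the same direction in both pairs of libraries, as were 21.3% of 13857 genes expressed in any library. For all 8 factors both Huh-7 libraries lay on one side of both PLC/PRF/5 libraries, which was also true of 82.5% of those genes. For HNF4A this separation was narrow, since the lower Huh-7 value, 12.1 FPKM, was 1.04-fold the higher PLC/PRF/5 value, 11.6 FPKM. The corresponding gap was 8.04-fold for CEBPA, 7.25-fold for ONECUT2 and 3.30-fold for ONECUT1.

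**Figure D4:**
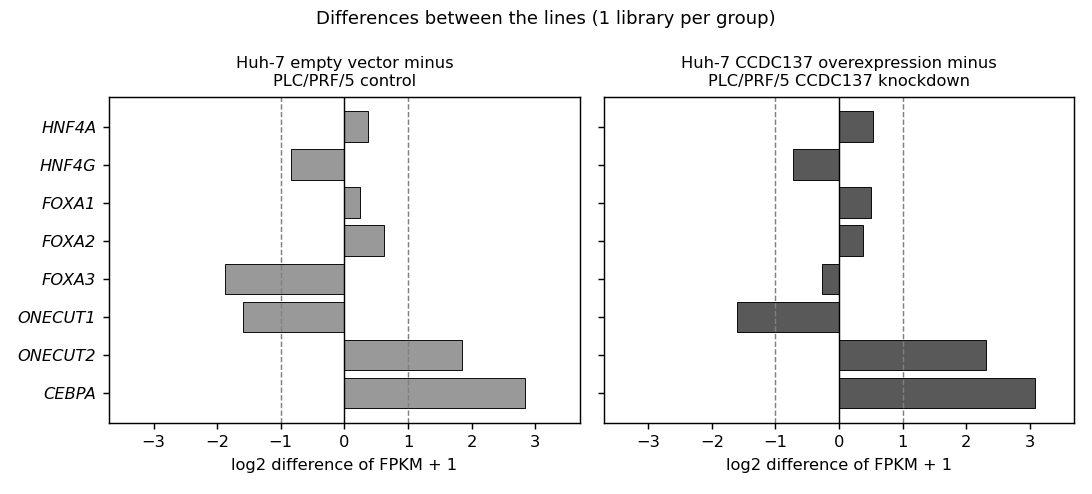
Difference in log2(FPKM + 1) of each factor, Huh-7 minus PLC/PRF/5, for the vector cells (left) and for overexpressing Huh-7 minus knockdown PLC/PRF/5 cells (right), 1 library per group, with dashed lines at 2-fold. CEBPA, ONECUT2 and ONECUT1 pass a line in both panels, and FOXA3 passes it on the left only (-1.88 and -0.27).

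The precision of these values depends on how many fragments lie behind them, which FPKM do not give. If all fragments came from the longest listed transcript, FPKM times its length in kilobases gives the fragments behind a value for each 1000000 mapped fragments. FOXA3 then rested on 25.6 such fragments with overexpression and 8.22 with the empty vector, HNF4G on 6.33 and 5.41 in those Huh-7 libraries, and ONECUT2 on 7.57 in the knockdown and 11.6 in the control. CEBPA had 160.5 and 143.2 such fragments in overexpressing and empty vector Huh-7 cells. The FOXA3 value of the Huh-7 empty vector and the ONECUT2 values of PLC/PRF/5 are thus among those with the fewest fragments of the 8 factors. Depth in mapped fragments is unknown, and no interval was set.

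The genes nearest to each factor in pattern across the 4 libraries were looked up among the expressed genes. Likeness was the Euclidean distance between log2(FPKM + 1) values over the 4 libraries after the mean of the 4 was subtracted, so that it rests on 4 points from 2 lines. For the 4 factors whose own values spanned at least 2-fold on this scale, only the 5021 genes that also did were searched, and within a distance of 0.2 lay 1 of them for FOXA3, 26 for ONECUT2, 31 for CEBPA and 169 for ONECUT1. For the other 4, all 13856 genes were searched, and 44 lay within that distance of HNF4A, 681 of FOXA2, 716 of HNF4G and 897 of FOXA1. The counts of the 2 sets of factors cannot be compared, since a factor with a small range lies near any gene that varies little. Nearest to FOXA3 were the pseudogene BCLAF1P2 (distance 0.14), AC068533 (0.31) and NUDT3 (0.32), and NUDT3 was at 9.72 FPKM with overexpression, 2.76 FPKM with the empty vector, 14.9 FPKM in the knockdown and 16.3 FPKM in the control. Nearest to CEBPA were GOLM1, a Golgi membrane protein (0.06), DEPP1 (0.07) and PODN (0.09). Nearest to ONECUT2 were LINC02432 (0.08), DHRS7 (0.10) and FBXO10 (0.13), and nearest to ONECUT1 were EFNA5 (0.03), GUCY2C, the guanylate cyclase of the gut (0.06), and TOB1 (0.06). HNF4A was nearest to FOXN3-AS1 (0.04), ASXL1 (0.07) and RAD51AP1 (0.10), HNF4G to PECR, HCAR1 and RSL24D1 (0.02, 0.02 and 0.03), FOXA1 to SH3BP5L, RHOU and PCMTD2 (0.03 each) and FOXA2 to OXSM, PDHX and AC104794 (0.03 each).

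A long noncoding RNA beside FOXA2 differed more than FOXA2 on knockdown. LINC00261, 2356 bases from FOXA2 on the same strand in GENCODE on GRCh37, was at 6.10 FPKM in the knockdown, against 2.48 FPKM in the control, and at 17.8 FPKM with overexpression, against 15.6 FPKM with the empty vector. Of 22 antisense or neighbouring transcripts listed for the 8 factors, 17 were in the tables and 10 reached 1 FPKM in any library. Over the 13857 genes at that level in any library, 2.99% were past 1.5-fold higher and 2.79% lower on overexpression, 2.92% and 2.67% on knockdown, and 13.0% and 14.1% past 2-fold higher and lower in Huh-7 between the vector cells. On overexpression 1 of the 10 was past 1.5-fold higher (PEX2, a peroxisome assembly protein, at 4.40 against 1.85 FPKM) and 1 lower (WDR72, at 5.57 against 11.7 FPKM). On knockdown LINC00261 was the 1 past it higher and PEX2 the 1 lower, at 2.58 against 4.84 FPKM. Between the vector cells of the lines 3 were past 2-fold higher in Huh-7 (LINC00261, WDR72 and ZFHX4) and 2 lower (median -0.04), with IRF2BP1 at 4.99 FPKM in Huh-7 and 17.0 FPKM in PLC/PRF/5. Between the libraries with altered CCDC137 4 were past it higher and 1 lower, against 13.3% and 14.1% of all expressed genes (median 0.34). PEX2, WDR72 and ZFHX4 were listed as genes of the wider regions and are not the annotated genes directly beside a factor.

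The other hepatocyte transcription factors, 32 listed genes of which 26 reached 1 FPKM in any library, had a median of 0.03 on overexpression, and 2 of them (7.69%) were past 1.5-fold higher and 0 lower, against 2.99% and 2.79% of all expressed genes. These were HHEX, a homeobox factor of liver bud growth, at 18.1 FPKM with overexpression and 11.5 FPKM with the empty vector, and PPARA, the fatty acid receptor, at 1.89 and 0.780 FPKM. On knockdown 1 (3.85%) was past it higher and 3 (11.5%) lower, against 2.92% and 2.67% of all expressed genes (median -0.02). CREB3L3, a membrane-bound factor of the fasting response, was at 9.70 FPKM in the knockdown and 3.07 FPKM in the control. HHEX was lower, at 14.6 against 22.8 FPKM, as were PPARA, at 0.591 against 1.66 FPKM, and NR0B2, the bile acid-induced repressor, at 4.11 against 6.73 FPKM. HHEX and PPARA, the latter at low FPKM throughout, were thus past 1.5-fold in opposite directions in the 2 comparisons. The share of all expressed genes for which this held was not computed. Of the 26, 9 (34.6%) were past 2-fold higher and 3 (11.5%) lower in Huh-7 between the vector cells, against 13.0% and 14.1% of all expressed genes (median 0.30). Between the libraries with altered CCDC137, 6 (23.1%) were past it higher and 2 (7.69%) lower, against 13.3% and 14.1% of all expressed genes (median 0.53). NR1H4, the bile acid receptor, was at 11.7 FPKM in Huh-7 and 0.0310 FPKM in PLC/PRF/5, GATA6, an endoderm factor, at 6.34 and 0.0145 FPKM, and the orphan receptor NR2F1 at 8.004 and 0.213 FPKM.

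Coactivators and corepressors of the HNF4, FOXA and CEBP factors were expressed for 21 of 22 genes. On overexpression 1 was past 1.5-fold, MED1, a Mediator subunit that binds nuclear receptors, at 3.50 FPKM against 5.81 FPKM (list median 0.06), or 4.76% of the list lower, against 2.79% of all expressed genes. On knockdown 0 were (median -0.09). Between the vector cells 3 (14.3%) were past 2-fold higher in Huh-7 and 2 (9.52%) lower, against 13.0% and 14.1% of all expressed genes. The counts were the same between the libraries with altered CCDC137, against 13.3% and 14.1% of all expressed genes. The median was -0.15 in the vector cells and 0.06 in those libraries, so that it had no stable sign. SMARCA4, the ATPase of the SWI/SNF chromatin remodeler, was at 14.2 FPKM in Huh-7 and 0.966 FPKM in PLC/PRF/5. TRIB1, a pseudokinase that targets CEBPA protein for degradation, was at 19.5 FPKM in Huh-7, where CEBPA mRNA was high, and 4.85 FPKM in PLC/PRF/5. MED1 was lower in Huh-7, at 5.81 FPKM, against 18.7 FPKM in PLC/PRF/5.

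Classic target genes of the factors differed between the lines far more than within them, and in both directions. Of the HNF4A targets 19 of 28 were expressed, and between the vector cells 8 were past 2-fold higher and 5 lower in Huh-7 (median 0.46), where HNF4A itself was 1.33-fold higher. Between the libraries with altered CCDC137 these were 10 and 5, and the median was 1.02. TTR, the thyroid hormone carrier, was at 89.3 FPKM in Huh-7 and 0.298 FPKM in PLC/PRF/5. APOA1, the main protein of high-density lipoprotein, was at 237.8 and 4.60 FPKM, and APOC3 at 63.1 and 1.40 FPKM. Among the 5 lower in Huh-7 vector cells were F12, at 1.98 and 7.60 FPKM, and MTTP, at 1.15 and 4.83 FPKM. Of the FOXA and ONECUT targets 10 of 16 were expressed, 3 past 2-fold higher and 3 lower in either pair (median 0.50 in the vector cells and 0.36 with altered CCDC137). ALB, serum albumin, was at 1084 FPKM in Huh-7 and 2.15 FPKM in PLC/PRF/5, whereas IGFBP1 was at 1.97 FPKM in Huh-7 and 212.0 FPKM in PLC/PRF/5. Of the CEBPA targets 11 of 19 were expressed, 5 past 2-fold higher and 3 lower in the vector cells (median 0.85), and 6 and 4 in the libraries with altered CCDC137 (median 1.47). ORM1, an acute phase protein, was at 452.2 FPKM in Huh-7 and 11.9 FPKM in PLC/PRF/5, and HP, haptoglobin, at 33.8 and 0.0938 FPKM. CPS1, the first enzyme of the urea cycle, ran against CEBPA, at 0.831 FPKM in Huh-7 and 300.7 FPKM in PLC/PRF/5. Over the 13857 genes expressed in any library, 13.0% were past 2-fold higher and 14.1% lower in Huh-7 in the vector cells (median -0.03), and 13.3% and 14.1% with altered CCDC137 (median -0.0021). Several genes stand in more than 1 list, such as TTR and TF in those of HNF4A and FOXA targets and ALB and CPS1 in those of FOXA and CEBPA targets. The lists are therefore not separate measurements.

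**Figure D5:**
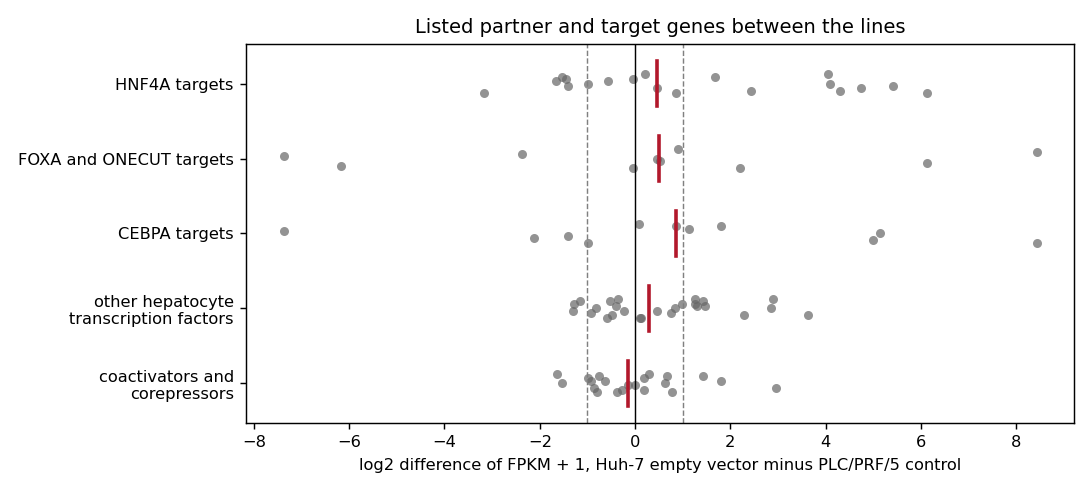
Difference in log2(FPKM + 1), Huh-7 empty vector minus PLC/PRF/5 control, of the expressed genes of 5 lists, 1 point per gene with small vertical offsets for legibility (red line, median of the list; dashed lines, 2-fold). Targets of the factors lie on both sides, with ALB (8.43) and CPS1 (-7.36) at the ends, and the list medians lie between -0.15 and 0.85.

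Within the lines the targets gave small medians. On overexpression the medians were 0.04 for HNF4A targets, 0.01 for FOXA and ONECUT targets and 0.00 for CEBPA targets. Past 1.5-fold lay 2 HNF4A targets, 1 in each direction, 1 CEBPA target, which was higher, and 0 FOXA and ONECUT targets, of 19, 11 and 10 expressed, against 2.99% higher and 2.79% lower over all expressed genes. These were F7, coagulation factor VII, at 15.0 FPKM with overexpression and 3.79 FPKM with the empty vector, APOA4, an intestinal and hepatic apolipoprotein, at 7.22 and 17.0 FPKM, and ARG1, the last enzyme of the urea cycle, at 2.91 and 0.803 FPKM. On knockdown the medians were -0.03 for HNF4A targets, 0.06 for FOXA and ONECUT targets and 0.00 for CEBPA targets. Here the CEBPA median was the value of ARG1, at 0 FPKM in both PLC/PRF/5 libraries. Over all expressed genes 2.92% were past 1.5-fold higher and 2.67% lower on knockdown. Of the targets, past it lay F7, at 2.72 FPKM in the knockdown and 6.05 FPKM in the control, and APOA2, at 25.4 and 71.7 FPKM, both lower, with AFP, the fetal albumin relative, at 139.1 and 90.8 FPKM and SOCS2 at 5.94 and 2.99 FPKM, both higher. F7 was thus higher on overexpression, where HNF4A was higher by 0.48, and lower on knockdown, where HNF4A was higher by 0.32.

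Of 18 further listed relatives of the factors, 9 were expressed. The shares of all expressed genes past the limits, higher and lower, were 2.99% and 2.79% on overexpression, 2.92% and 2.67% on knockdown, and 13.0% and 14.1% between the vector cells. They were 13.3% and 14.1% between the libraries with altered CCDC137. On overexpression 1 relative was past 1.5-fold higher, DDIT3, a CEBP family member of the stress response, at 26.9 FPKM against 12.7 FPKM (median 0.02), and on knockdown 0 were (median -0.0046). Between the vector cells 2 were past 2-fold higher and 4 lower in Huh-7 (median -0.998), and 2 and 3 with altered CCDC137 (median -0.82), such as FOXF2 at 2.09 and 0.0229 FPKM and FOXE1 at 1.58 and 7.41 FPKM in Huh-7 and PLC/PRF/5. Of 10 factors and markers of the mesenchymal switch that is set against HNF4A, 7 were expressed. They include the epithelial cadherin CDH1, at 15.9 FPKM in Huh-7 and 16.8 FPKM in PLC/PRF/5 vector cells. The medians of this list are therefore not of mesenchymal genes alone. On overexpression ZEB1, a repressor of epithelial genes, was past 1.5-fold higher, at 3.76 FPKM against 2.13 FPKM (median 0.04), and on knockdown 0 were past it (median -0.11). In Huh-7, 3 were past 2-fold higher and 0 lower between the vector cells (median 0.86), and 2 and 0 with altered CCDC137 (median 0.61), with VIM, vimentin, at 125.3 FPKM in Huh-7 and 28.1 FPKM in PLC/PRF/5.

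The cell type marker lists had small medians within the lines, while single markers were past 1.5-fold. On overexpression the medians were 0.05 for hepatocyte, 0.04 for hepatoblast and oncofetal, -0.04 for bile duct, -0.01 for gut and pancreas, -0.02 for fibroblast and 0.00 for blood and endothelial markers. The blood and endothelial median was the value of HBA1, at 0 FPKM in both Huh-7 libraries. Past 1.5-fold, as were 2.99% of all expressed genes higher and 2.79% lower, lay LIN28B, an oncofetal RNA-binding protein, at 9.27 FPKM with overexpression and 3.92 FPKM with the empty vector, and CD68 at 4.60 and 8.45 FPKM. On knockdown the medians were -0.01, 0.00005, 0.04, 0.04, 0.07 and 0.19 in the same order. All 5 blood and endothelial markers that reached 1 FPKM in any library were higher, against 47.8% of genes expressed in that pair. Of these 5, CD14 (0.0292 FPKM in the knockdown and 0 FPKM in the control) and PECAM1 (0.982 and 0.876 FPKM) stayed below 1 FPKM in PLC/PRF/5. Past 1.5-fold, against 2.92% of all expressed genes higher and 2.67% lower, lay 3 of 9 expressed hepatoblast and oncofetal markers, 1 of 10 bile duct and 1 of 5 blood and endothelial markers. These were AFP higher, GPC3 (18.4 FPKM in the knockdown and 28.1 FPKM in the control), LIN28B (11.1 and 22.7 FPKM) and CFTR (2.41 and 4.14 FPKM) lower, and LYZ (206.3 and 128.7 FPKM) higher. Between the vector cells the medians were 0.19, 0.80, -0.25, -0.33, 1.21 (2 expressed genes) and 0.61, and between the libraries with altered CCDC137 0.17, 0.83, -0.26, -0.37, 1.13 and -0.36. The blood and endothelial median thus had opposite signs in the 2 pairs. The part of other cell states in the line differences of the factors was not tested.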

How the data were processed

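Polyadenylated RNA of 4 libraries was sequenced in paired ends after marking the second cDNA strand with dUTP. Tools named by the submitters were StringTie 1.3.4d, HISAT2 2.0.4 and cutadapt, without their settings. For the build, the annotation and the strand setting, the sources used here give nothing. The authors deposited FPKM per gene, in which 0.0001 stands for 0 and was set to 0 here. Their fold, log2 fold, p-value, q-value and regulation columns were not used. The depth and precision of each library are unknown, since no read counts were analysed.

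Samples were grouped by title and genotype label. Differences were log2((FPKM + 1)/(FPKM + 1)), computed in Python 3.11.15 with numpy 2.4.6 and pandas 2.3.3, drawn with matplotlib 3.10.9, and tested on simulated data. Genes counted as expressed at 1 FPKM or more in either library of a pair, or in any library for the gene lists. A limit of 1.5-fold was used within lines and 2-fold between lines. No model was fitted, since each group had 1 library. GENCODE release 44 lifted to GRCh37 gave positions, neighbours and transcript lengths, and RefSeq on GRCh38.p14 gave promoters. Neither need be the authors' annotation, and no coordinate was converted.

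All 8 factors were named. Of each of the 14 gene lists, the 4 expressed genes with the largest differences could be named, as could the 3 genes nearest in pattern and the genes beside a factor. The markers CYP3A4, SOX9, CD24, PTPRC, HBB, KDR, CDX1, NKX2-2, PTF1A, NEUROG3 and INS were named because of their values. The factors, lists and limits were chosen with earlier results of these data known. Alternatives were other pseudocounts (0.1 and 0.01), scaling to a sum of 1000000, to the median ratio or to the upper quartile, and other filters on low values (5 FPKM, or none).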

Additional observations from a re-analysis of the deposited data

How the results depend on the processing

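The count of factors past 1.5-fold on overexpression was 1 under every pseudocount, scaling and filter tried, and FOXA3 ranged there from 1.43 to 1.64. The share of expressed genes past 1.5-fold was less stable. It was 6.21% in the main setting, 10.3% and 10.9% at pseudocounts of 0.1 and 0.01, and 15.0% after scaling to 1000000. On knockdown the count was 0 except with a pseudocount of 0.01 FPKM, where it was 1 because ONECUT2, below 1 FPKM in both libraries, came to -0.61. Between the lines the count past 2-fold was 4 or 5 in the vector cells, with HNF4G as the additional factor (-1.19 at a pseudocount of 0.1, -1.25 at 0.01 and -1.09 after scaling to 1000000). It was 3 in the libraries with altered CCDC137, and the median over the factors was then 0.44 instead of 0.31. Of 171 values of single factors under the alternatives, 1 had the other sign (HNF4G on knockdown, -0.0018 after scaling to 1000000). No paired analysis was possible because each group had 1 library and the labels give no shared replicate numbers, and for the same reason no library could be left out. The number of fragments behind low values such as HNF4G and ONECUT2 is unknown and is a further limit.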
